A study of Mus musculus with 29 samples.

Results

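The genes described here were 46 collagens, matrix proteins, fibroblast genes and smooth muscle genes of mouse lung, chosen by name and read across lung tumours and normal lung on 29 expression arrays. Of these 46 genes, 45 were named by the array's annotation and 44 passed the signal filter, out of 14602 genes tested in all. The 44 fell into 33 matrix genes, 6 contractile genes of smooth muscle, 3 lung mesenchyme genes (Inmt, Tcf21 and Fendrr) and 2 pericyte genes (Cspg4 and Rgs5). Cnn1, a contractile gene, had values but was too dim on too many arrays to be tested, and Fbn1 was not analysed here. For a gene with several probe sets (the groups of short probes that read 1 transcript), the probe set with the highest mean was used.

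The study compared lung tumours that arose with and without overexpression of the spindle checkpoint gene Mad2, and tumours that came back after the oncogene was withdrawn, as its title states. The TI-KM recurrences (6 arrays) and the TI-KM primary tumours (14 arrays) carried CCSP-rtTA, TRE-KrasV12 and TRE-Mad2. TI-K primary tumours (8 arrays) carried CCSP-rtTA and TRE-KrasV12, and the normal lung (1 array) carried CCSP-rtTA alone, so that all groups shared the CCSP-rtTA transgene. The strain was given as a 129/Bl6 mixed background. The CCSP promoter is active in airway epithelial cells and rtTA turns on TRE transgenes in the presence of doxycycline, so the transgenes were under control of an epithelial promoter, while fibroblasts and muscle cells make most of the products described here. The labels used here do not give age, doxycycline status or which arrays came from the same animal, so the p-values measure the spread between these samples, and TI-KM primaries 1 and 2 shared the number 76 in their titles.

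Fibrillar collagens, elastic fibres and proteoglycans are secreted mainly by fibroblasts, while basement membrane collagens are also made by endothelial and epithelial cells. Smooth muscle cells around airways and vessels, and fibroblasts activated in tumours, make the contractile proteins. Many contractile genes are switched on by serum response factor, which binds the CArG box, a site that reads CC, a run of A and T, then GG.

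Because this box is known to control contractile genes, the 250 bases before the start used by the RefSeq promoter table (build GRCm38.p6) were searched for it. The site reads the same class of letters on both strands. Promoters were at hand for 4 contractile genes, Acta2, Cnn1, Des and Myl9. A full box stood in 1 of these 4, that of Myl9, and a box with at most 1 mismatched letter in 2 of the 4, those of Acta2 and Myl9, and neither form in those of Cnn1 and Des. Over all 32851 promoter windows the shares were 1.47% for the full box and 18.6% with 1 mismatch allowed. The matches are printed 5′ to 3′ with the box in capitals. The Acta2 matches lie at chr19:34255438-34255467 and chr19:34255388-34255417, minus strand, and the Myl9 matches at chr2:156775293-156775322 and chr2:156775355-156775384, plus strand. The Acta2 matches lie inside the gene's full annotated span, which begins farther upstream than the start used in the promoter table. The first Myl9 site is the full box and the other 3 sites carry 1 mismatch.
Acta2: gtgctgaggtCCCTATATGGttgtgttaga
Acta2: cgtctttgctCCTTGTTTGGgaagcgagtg
Myl9: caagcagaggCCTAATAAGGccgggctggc
Myl9: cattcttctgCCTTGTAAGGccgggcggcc
Acta2 and Myl9 were among the genes called lower in each of the 3 tumour groups than in the normal lung, as described next. So was Myh11, whose promoter was not at hand. Of the genes without a match, Des passed no test, and Cnn1 was below the normal lung in every tumour but could not be tested. Whether the box is linked to these values was not tested. A match is a description of these letters and not a measured binding site, and promoters without one in this window may hold one elsewhere.

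All values were MAS5 signals, a linear brightness scale on which every array was set to the same trimmed mean, so a value has meaning relative to its own array and not between genes. Differences are on the log2(signal + 20) scale with their standard errors (SE), and a gene was called where its p, adjusted over all 14602 genes, was below 0.05. The arrays differed in technical readings. The 18S control was above 12000 on TI-KM primaries 1 to 6, on recurrences 1 to 4 and on the normal lung (12569 to 24001), and between 5939 and 10857 on the rest. TI-K primaries 1 to 5 had title numbers above 6000, and no other tumours did. These sets are called high-18S, high-number and remaining arrays below. No 2 arrays held identical values.

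**Figure D1:**
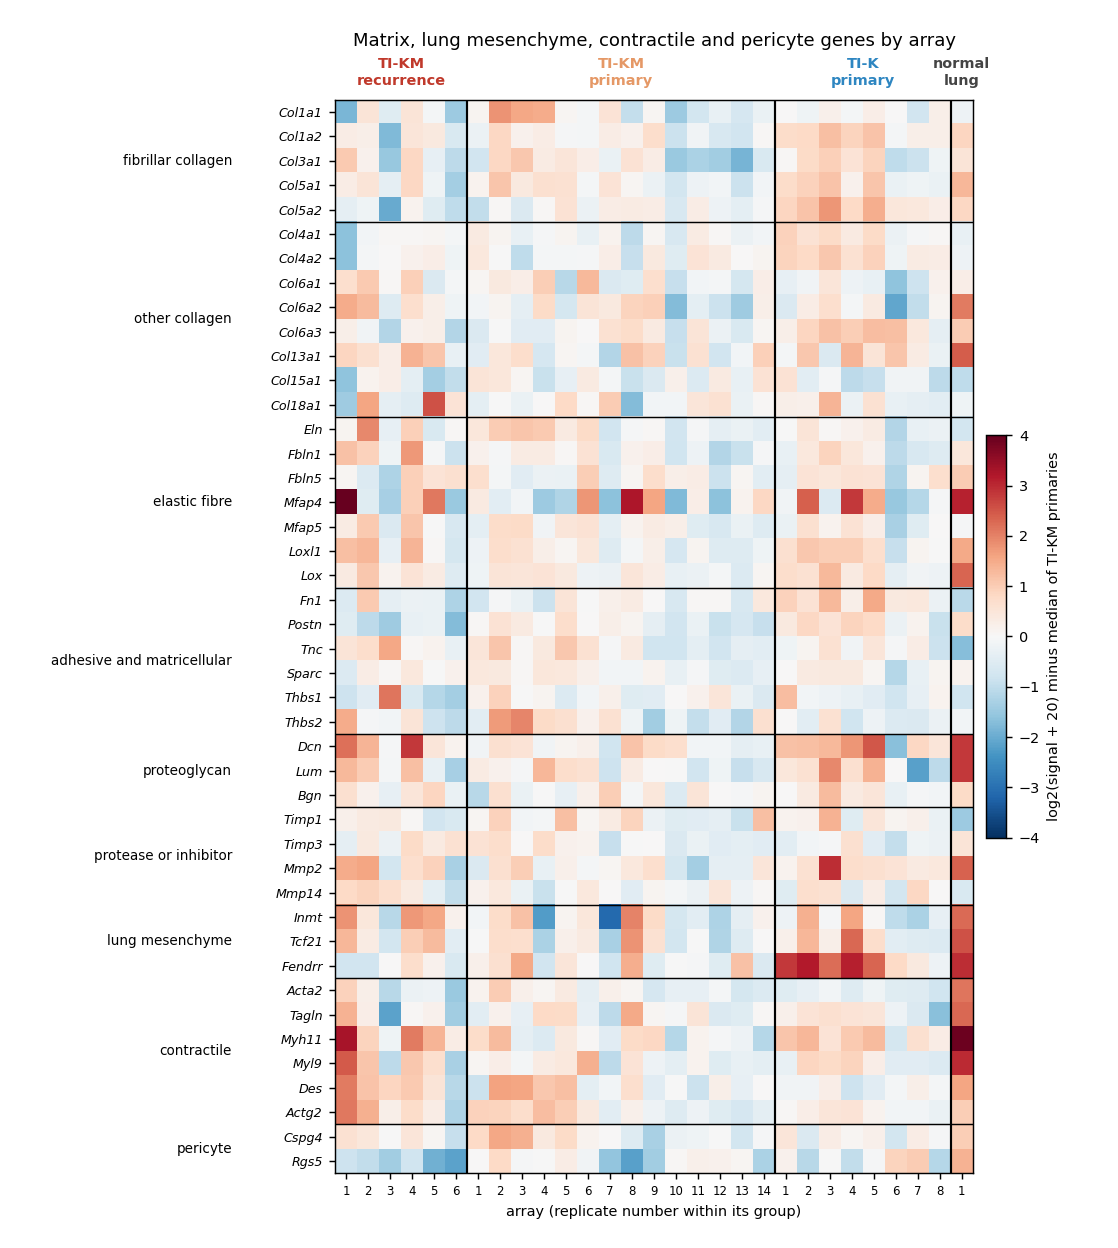
Heat map of the 44 tested genes (rows, by role) on the 29 arrays (columns, by group, numbered within it). Colour is the log2(signal + 20) value minus the median of the 14 TI-KM primaries, red higher and blue lower. The normal lung column is red for Acta2, Tagln, Myh11 and Myl9, recurrence 1 is red for Mfap4 and the contractile genes, and TI-K primaries 1 to 5 are red for Fendrr.

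The contractile genes Acta2, Myh11 and Myl9 were called lower in every tumour group than in the normal lung, Tagln in recurrences only, and Des and Actg2 in none. Of the 6 tested, 4 were called lower in recurrences, 3 in TI-KM primaries and 3 in TI-K primaries, and none higher, where 6.09%, 7.16% and 6.79% of all genes were called lower in those comparisons. The median differences of the 6 were -2.47, -2.22 and -2.43 on the log2 scale, against 0.14, 0.10 and 0.00 over all genes tested. The 3 comparisons share the single normal lung, which has no spread of its own and was taken to vary like the tumours.

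Acta2, the smooth muscle actin (chromosome 19, 34240336 to 34255585, GRCm38.p6), had signals of 7116, 4425, 1731, 3217, 3255 and 1322 in recurrences 1 to 6. TI-KM primaries ran from 2284 through a median of 3768 to 7691, TI-K primaries from 2165 through 2675 to 3469, and the normal lung stood at 16515. Every tumour was below the normal lung, and the tumour groups overlapped. Acta2 was 5.44-fold lower in recurrences (log2 difference -2.44, SE 0.54, adjusted p = 0.00242), 4.57-fold lower in TI-KM primaries (-2.19, SE 0.52, adjusted p = 0.00349) and 5.88-fold lower in TI-K primaries (-2.56, SE 0.53, adjusted p = 0.00109). These calls rest on the brightest Acta2 probe set. A dim one (mean signal 7.65) gave -1.19, -1.29 and -1.30 in that order, and another (mean signal 25.5) gave 0.29, 0.03 and -0.24.

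Myh11, the myosin heavy chain found in mature smooth muscle, had 492, 77.0, 26.8, 202, 115 and 43.9 in the recurrences. It ran from 3.73 through 32.6 to 108 in TI-KM primaries and from 12.6 through 75.2 to 113 in TI-K primaries, against 772 in the normal lung. The highest tumour, recurrence 1, was still below the normal lung, and the lowest primaries lay under the offset of 20. The log2 differences from the normal lung were -2.63 (SE 0.88, adjusted p = 0.0457) in recurrences, -3.89 (SE 0.84, adjusted p = 0.00148) in TI-KM primaries and -3.22 (SE 0.86, adjusted p = 0.0101) in TI-K primaries. The call in recurrences was lost without any 1 of recurrences 2, 3, 5 and 6, for which Myh11 had -2.33 to -2.64 (adjusted p = 0.0514 to 0.07), and in 5 of 14 other processing settings.

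Myl9, a regulatory light chain of myosin, had 1338, 510, 100, 507, 377 and 79.9 in the recurrences. TI-KM primaries ran from 98.8 through 228 to 641 and TI-K primaries from 148 through 230 to 438, against 1950 in the normal lung. Recurrence 1 stood apart from the other tumours, and all of them lay under the normal lung. Myl9 was lower than in the normal lung by log2 differences of -2.50 (SE 0.84, adjusted p = 0.0482) in recurrences, -2.97 (SE 0.81, adjusted p = 0.0109) in TI-KM primaries and -2.86 (SE 0.83, adjusted p = 0.0179) in TI-K primaries. In recurrences the Myl9 call was lost without any 1 of recurrences 3, 5 and 6 (-2.14 to -2.53, adjusted p = 0.0518 to 0.073), and in 6 of 15 other processing settings.

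Tagln, the actin-binding protein transgelin, had 1037, 462, 70.5, 390, 430 and 134 in the recurrences. It ran from 173 through 380 to 1120 in TI-KM primaries and from 105 through 487 to 608 in TI-K primaries, against 1946 in the normal lung. All tumours were again lower than the normal lung, and the test was passed in recurrences (-2.57, SE 0.86, adjusted p = 0.0466), though not without recurrence 3 (Tagln -2.20, adjusted p = 0.0667) or recurrence 6 (-2.35, adjusted p = 0.0678). This Tagln call was also lost in 7 of 15 other processing settings. The differences were -2.25 in TI-KM primaries (adjusted p = 0.0641) and -2.30 in TI-K primaries (adjusted p = 0.0681). Without TI-KM primary 8, the TI-KM difference of Tagln was -2.37 (adjusted p = 0.0398). Without recurrence 3 or without recurrence 6, the members of all classes called in recurrences numbered 5 in place of 8.

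Des, the muscle intermediate filament desmin, and Actg2, the enteric smooth muscle actin, passed no test against the normal lung. Des ran from 48.7 to 611 and Actg2 from 28.9 to 485 in recurrences, against 426 and 211 in the normal lung, so both overlapped it. Cnn1, the muscle protein calponin, had 207, 7.98, 10.7, 7.46, 83.6 and 3.96 in the recurrences, 1.59 to 71.5 in TI-KM primaries and 1.38 to 46.3 in TI-K primaries, against 378 in the normal lung. Recurrence 1 was the highest tumour for Cnn1, as for Myh11.

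**Figure D2:**
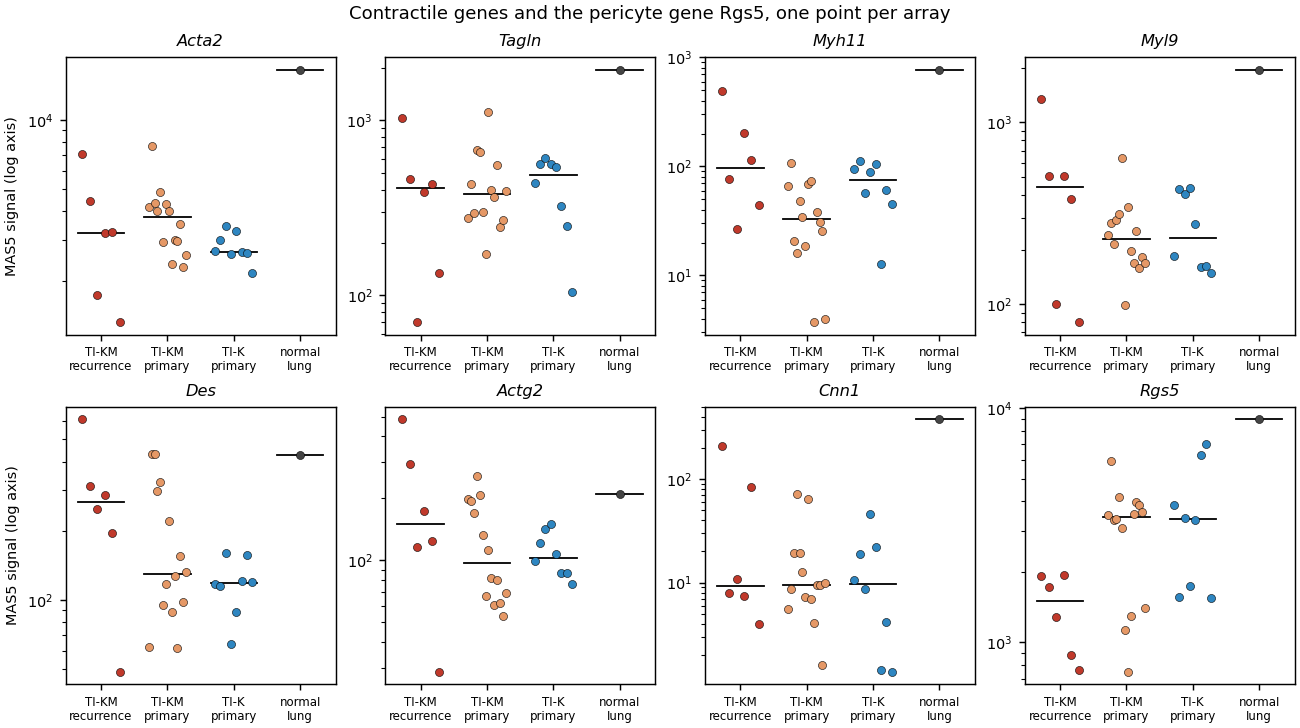
MAS5 signals (log axis) of 7 contractile genes and Rgs5, one point per array and a bar at each group's median, for TI-KM recurrences, TI-KM primaries, TI-K primaries and the normal lung. The normal lung is above every tumour for Acta2, Tagln, Myh11, Myl9, Cnn1 and Rgs5, and recurrence 1 exceeds it for Des and Actg2.

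Matrix genes had smaller median differences from the normal lung than contractile genes, and calls in both directions. Of 33 tested, 1 was called lower and 1 higher in recurrences, and the same numbers in TI-K primaries. In TI-KM primaries 5 were called lower and 0 higher. Of all genes, 6.09%, 7.16% and 6.79% were called lower in recurrences, TI-KM primaries and TI-K primaries. The shares called higher were 6.46%, 7.75% and 6.74%, and those in either direction 12.6%, 14.9% and 13.5%. The median differences of the 33 were -0.27, -0.58 and -0.29. Tumours all lay below the normal lung for 8 of the 33 (Col5a1, Col6a2, Col13a1, Fbln5, Loxl1, Lox, Dcn and Lum) and all above it for 2 (Tnc and Timp1), where 12.4% and 12.6% of all genes did so.

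The fibrillar collagens, the rope-forming collagens of connective tissue, passed no test against the normal lung in any group (5 tested). Col1a1, a chain of collagen I, had 190, 1061, 515, 1062, 692 and 257 in the recurrences. It ran from 253 through 733 to 2619 in TI-KM primaries and from 424 through 741 to 892 in TI-K primaries, with 637 in the normal lung. The normal lung thus lay inside the range of all tumour groups. Col3a1, the collagen III chain, had 10091, 5507, 1686, 8695, 3936 and 2370 in the recurrences, 1337 through 4982 to 10347 in TI-KM primaries and 2439 through 6105 to 9463 in TI-K primaries, with 6962 in the normal lung. Log2 differences from the normal lung in recurrences, TI-KM primaries and TI-K primaries were -0.27, 0.28 and 0.16 for Col1a1 and -0.65, -0.77 and -0.36 for Col3a1. A second, dimmer Col1a1 probe set (mean signal 199) gave -0.57, -0.01 and 1.23 in that order.

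Lox, lysyl oxidase, which cross-links collagen and elastin, was the matrix gene called lower in each tumour group. It had 359, 612, 309, 415, 354 and 188 in the recurrences, 183 through 277 to 417.1 in TI-KM primaries and 211 through 400 to 708 in TI-K primaries, against 1479 in the normal lung. All tumours lay below the normal lung. The log2 differences were -2.01 (SE 0.50, adjusted p = 0.00654) in recurrences, -2.26 (SE 0.48, adjusted p = 0.0012) in TI-KM primaries and -1.95 (SE 0.49, adjusted p = 0.00628) in TI-K primaries. The probe set of largest variance for Lox gave -1.28, -1.78 and -1.18 in that order and passed no test (adjusted p = 0.325, 0.136 and 0.416).

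In TI-KM primaries, Col13a1, Dcn, Lum and Mmp2 were called lower too. Col13a1, a collagen anchored in the cell membrane, ran from 35.6 through 105 to 264 in TI-KM primaries, against 652 in the normal lung (-2.37, SE 0.71, adjusted p = 0.0215). Dcn, the collagen-binding proteoglycan decorin, ran from 703 through 1227 to 2705, against 8875 (-2.69, SE 0.87, adjusted p = 0.034). Both genes lay wholly below the normal lung in TI-KM primaries, and recurrence 4 came closest to it for Dcn, at 8796. Lum, the proteoglycan lumican, and Mmp2, a gelatinase, differed by -2.81 (SE 0.92, adjusted p = 0.0375) and -2.38 (SE 0.81, adjusted p = 0.0442). The Mmp2 call was lost without any 1 of TI-KM primaries 1, 4, 6, 10, 12 and 13 (adjusted p = 0.0504 to 0.0529), and in 5 of 16 other processing settings.

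Fn1 and Tnc moved the other way. Fn1, the adhesive glycoprotein fibronectin, was higher in TI-K primaries (5096 through 8434 to 16987, against 2848 in the normal lung) by 1.70 log2 units (SE 0.55, adjusted p = 0.036). This Fn1 call was lost without TI-K primary 3 (1.60, adjusted p = 0.0503) and in 3 of 14 other processing settings. A second, dimmer Fn1 probe set (mean signal 124) gave 0.91 in TI-K primaries. Tnc, tenascin C, a matrix protein of healing and remodelling tissue, had 149, 174, 329, 104, 110 and 76.8 in recurrences, against 16.5 in the normal lung. All recurrences were above it, by 2.15 log2 units (SE 0.64, adjusted p = 0.0247). Tnc ran from 48.0 to 237 in TI-KM primaries (1.74, adjusted p = 0.0543) and from 45.6 to 160 in TI-K primaries (1.74, adjusted p = 0.0653). The normal lung's 16.5 lies under the offset of 20, so the size of the fold cannot be resolved. The Tnc call in recurrences was lost in 3 of 14 other processing settings, which gave differences of 1.08 to 3.01. A second, dimmer Tnc probe set (mean signal 10.8) gave -0.06 in recurrences.

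Of the lung mesenchyme genes, Fendrr and Tcf21 were called lower in TI-KM primaries and Fendrr in recurrences. Tcf21, a transcription factor of lung fibroblast precursors, ran from 122 through 327 to 1172 in TI-KM primaries, against 2015 in the normal lung (-2.60, SE 0.88, adjusted p = 0.0429), and the Tcf21 call was lost without TI-KM primary 10 (adjusted p = 0.0511) or 13 (adjusted p = 0.0512) and in 4 of 16 other processing settings. With the mean of its probe sets Tcf21 had -1.25 (adjusted p = 0.158), and its second probe set alone had 0.11. Inmt, a methyltransferase rich in mouse lung fibroblasts, was below the normal lung (13275) in all tumours and passed no test. Fendrr, a long noncoding RNA transcribed beside Foxf1 in lung mesenchyme (chromosome 8, 121054882 to 121083110, GRCm38.p6), had 44.2, 44.3, 90.6, 158, 102 and 52.3 in recurrences and 43.6 through 89.4 to 294 in TI-KM primaries, against 830 in the normal lung. The differences were -3.17 (SE 0.95, adjusted p = 0.0245) and -2.79 (SE 0.91, adjusted p = 0.0348). Both groups lay wholly below the normal lung. In TI-K primaries Fendrr differed by -1.13 (adjusted p = 0.497), and by -2.63 (SE 0.76, adjusted p = 0.0213) in the 3 remaining TI-K arrays alone.

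Rgs5, a regulator of G protein signalling that marks pericytes, the mural cells of capillaries, had 1917, 1726, 1283, 1945, 881 and 761 in the recurrences. It ran from 750 through 3416 to 5969 in TI-KM primaries and from 1540 through 3362 to 6998 in TI-K primaries, against 8958 in the normal lung. All tumours lay below the normal lung, and recurrences were called lower (-2.73, SE 0.81, adjusted p = 0.0238). Cspg4, the pericyte proteoglycan NG2, passed no test, at -0.86, -0.84 and -0.98 in recurrences, TI-KM primaries and TI-K primaries. Its second, dimmer probe set gave larger differences of -4.52, -3.56 and -2.50 in that order, so the Cspg4 probe sets disagreed in size.

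The normal lung was itself a high-18S array. Within high-18S arrays alone, 4 recurrences had 6 of the 44 genes called lower than the normal lung and 2 higher (11.8% of all genes in either direction), and 6 TI-KM primaries had 8 lower and 2 higher (15.1%). Timp1, a metalloproteinase inhibitor, joined Tnc among the higher genes in both. Of the contractile genes, Acta2 had -2.17 in recurrences (adjusted p = 0.0409) and -1.88 in TI-KM primaries (adjusted p = 0.052). Myh11 had -2.39 (adjusted p = 0.145) and -3.66 (adjusted p = 0.0278), and Myl9 had -2.09 (adjusted p = 0.158) and -2.58 (adjusted p = 0.0704), in the same order. All 3 kept their direction, and Myl9 passed no test in these smaller sets.

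**Figure D3:**
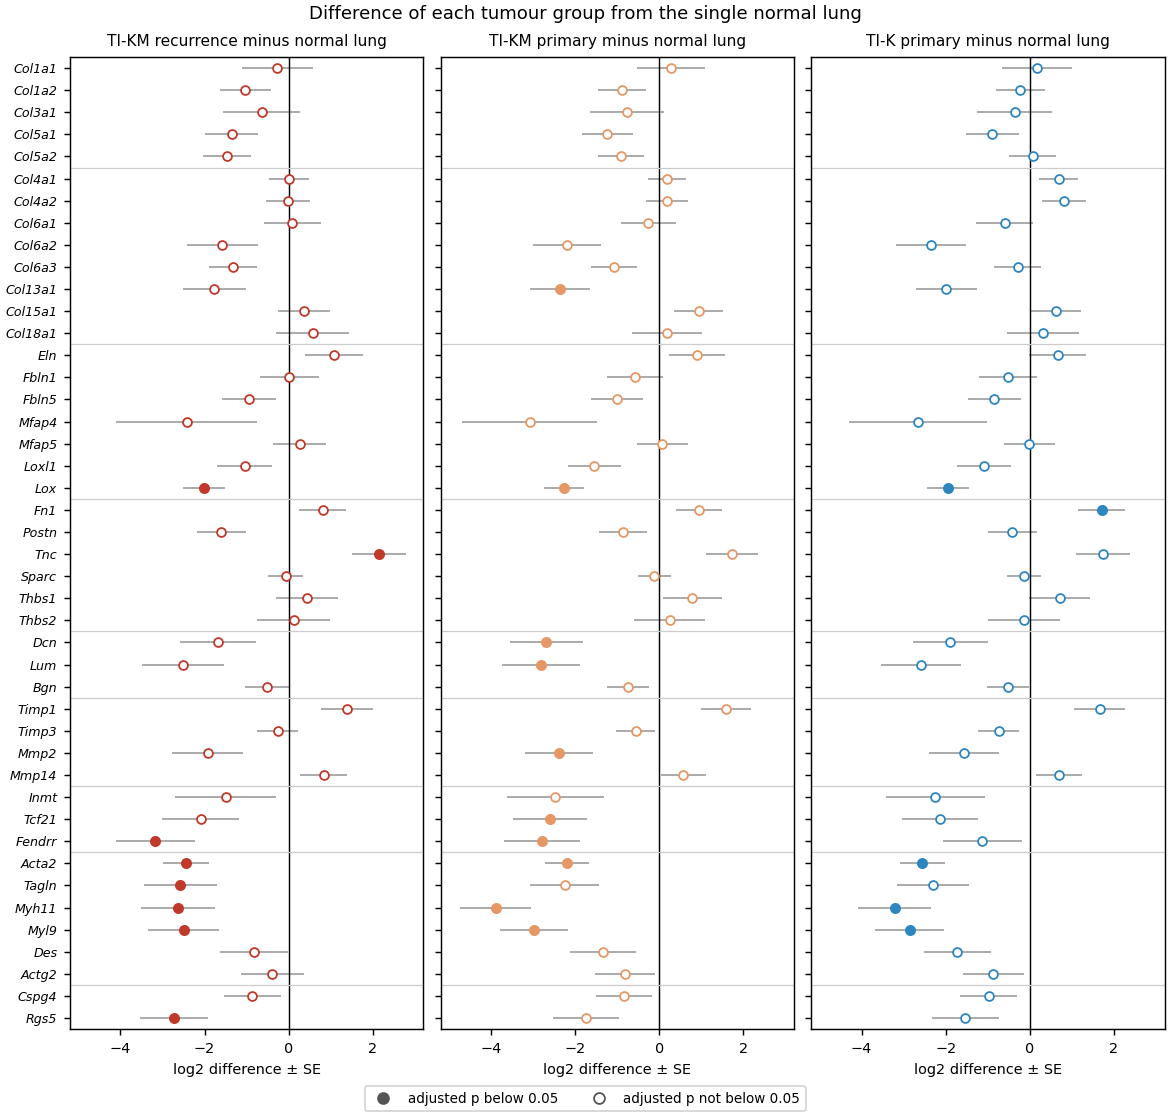
Log2 difference of each tested gene from the normal lung with its SE, one panel each for recurrences, TI-KM primaries and TI-K primaries. Filled points had an adjusted p below 0.05. Acta2, Myh11 and Myl9 are filled on the left of 0 in all panels, and the fibrillar collagens at the top are open in all panels.

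Other cell types' markers differed between the tumours and the normal lung as well. The summed signal of 7 fat cell markers was 2279 to 7502 in recurrences, 1375 to 10364 in TI-KM primaries and 1447 to 7185 in TI-K primaries, against 95788 in the normal lung. Ucp1, the heat-producing protein of brown fat, was at most 42.9 on any tumour, against 27200 in the normal lung, and Adipoq at most 61.4, against 16732. The 10 endothelial markers summed to 5357 to 14059, 3932 to 10170 and 4697 to 12704 in the same order of groups, against 26445, with 5, 7 and 6 of the 10 called lower. The 8 epithelial junction markers summed to 21631 to 88616, 53956 to 74563 and 44898 to 73469, against 8928, and all 8 were called higher in each group. Mesothelial markers (6) summed to 528 to 5995, 370 to 1768 and 380 to 1318, against 3485, and heart and skeletal muscle markers (9) to 536 to 2393, 379 to 2735 and 469 to 3827, against 3711. Alveolar type II markers (7) summed to 71182 to 142978, 98342 to 153199 and 116485 to 170468, against 49604, and macrophage markers (6) to 6913 to 40169, 10644 to 45725 and 25991 to 53451, against 12768. No marker was at 0 on any array, but no MAS5 value here was (the lowest was 0.025). This does not show that each cell type was present. The normal lung array thus read high for fat cell and endothelial markers and low for epithelial junction markers, and the part of this in the lower contractile and matrix values was not tested. In whole tissue, fewer cells of a type and less RNA per cell cannot be told apart.

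The comparison of TI-KM with TI-K primaries asks what the added Mad2 transgene was linked to. TI-KM primaries had 4 of 44 genes called lower and 0 higher, where 2.49% of all genes were called lower and 5.5% higher (7.99% in all). The 4 were Fendrr, Col5a2, Col6a3 and Fn1, so 3 of them were matrix genes. No contractile or pericyte gene was called.

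Fendrr had 43.6 through 89.4 to 294 in TI-KM primaries. In TI-K primaries 1 to 8 it had 758, 958, 492, 930, 529, 171, 123 and 74.2. The first 5 of these, the high-number arrays, exceeded every TI-KM primary, and the other 3 lay inside the TI-KM range. The log2 difference was -1.66 (SE 0.39, adjusted p = 0.0127). Within the remaining arrays (8 TI-KM against 3 TI-K primaries) it was -0.30 (SE 0.45, adjusted p = 0.937), and with the array sets as a block -0.26 (SE 0.43, adjusted p = 0.995).

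Col5a2, a chain of the thin collagen V fibrils, ran from 754 through 1523 to 2306 in TI-KM primaries. In TI-K primaries it had 2760, 3375, 5227, 2638, 4218, 2085, 2036 and 1826. The high-number arrays were again all above the TI-KM range and the other 3 within it. The log2 difference was -0.97 (SE 0.23, adjusted p = 0.0136), and -0.38 (SE 0.21, adjusted p = 0.78) within the remaining arrays.

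Col6a3, a chain of the microfibrillar collagen VI, ran from 640 through 1236 to 2069 in TI-KM primaries and from 968 through 2370 to 2929 in TI-K primaries (-0.78, SE 0.24, adjusted p = 0.04). Fn1 ran from 3291 through 5979 to 8549 in TI-KM primaries and from 5096 through 8434 to 16987 in TI-K primaries (-0.76, SE 0.23, adjusted p = 0.0405). Both pairs of groups overlapped. Within the remaining arrays the differences were -0.36 (adjusted p = 0.91) for Col6a3 and -0.23 (adjusted p = 0.91) for Fn1. Col6a3 and Fn1 both lost their calls, leaving 2 called genes, when any single array of TI-K primaries 1 to 5 or of TI-KM primaries 1, 2, 3, 4, 6 and 10 was left out (-0.71 to -0.85 for Col6a3 and -0.63 to -0.82 for Fn1, adjusted p = 0.051 to 0.105), and Col6a3 alone did without TI-K primary 6 (-0.71, adjusted p = 0.058).

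With the array sets as a block, 0 of 44 genes were called by limma (1 at an unadjusted p below 0.05, smallest adjusted p = 0.93), and within the remaining arrays 0 of 44 (0 at an unadjusted p below 0.05), and 0 of all 14602 genes in either fit. Inside the TI-K primaries, 454 of all 14602 genes were called higher in high-number arrays than in the other 3 and 668 lower (7.68% in all). Of the 44 genes, 8 were called higher there and 0 lower. These were Fendrr (2.41, SE 0.48, adjusted p = 0.00342), Lum (2.07, SE 0.43, adjusted p = 0.0045), Lox, Loxl1, Col5a1, Dcn, Sparc and Postn, and the fitted difference was positive for all 33 matrix genes, with a median of 0.71 against -0.02 over all genes. Among TI-KM primaries, high-18S arrays had 14 of 44 genes called higher than the remaining arrays and 0 lower. Over all 14602 genes, 4385 were called higher there and 1832 lower (42.6% in all). Genotype and array set cannot be told apart for the high-number arrays, which are all TI-K, and the high-18S primaries are all TI-KM. In the block fit and within the remaining arrays, the TI-K level thus rests on the same 3 arrays. These 2 fits are not separate checks.

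**Figure D4:**
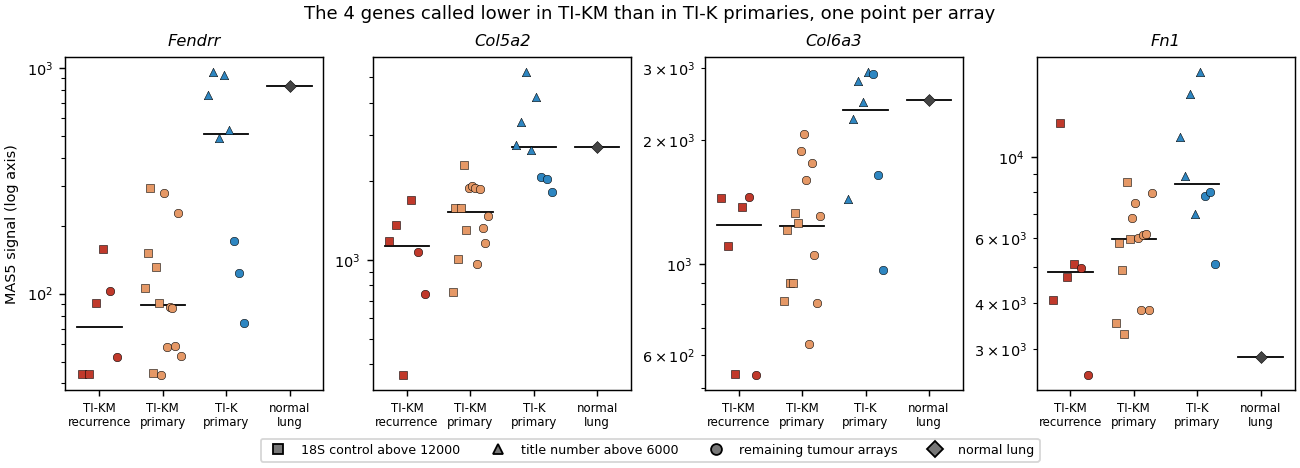
MAS5 signals (log axis) of the 4 genes called lower in TI-KM than in TI-K primaries, one point per array, with marker shapes for the array sets and a bar at each group's median. For Fendrr and Col5a2 the triangles, TI-K primaries 1 to 5, lie above every TI-KM primary, and the 3 TI-K circles lie within the TI-KM range.

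Recurrences were set against the TI-KM primaries to ask whether tumours of the same genotype differed after they came back. As a group they showed 0 of 44 genes called by limma, and 0 with the robust variance model, where 0.26% of all genes were called. An unadjusted limma p below 0.05 was found for 6 of the 44 genes and for 1809 of all 14602. The 3 genes with the smallest p were Myh11, Postn and Rgs5. Myh11, with the signals given above, was higher by 1.27 log2 units (SE 0.40, adjusted p = 0.169) and 3 of 6 recurrences exceeded every TI-KM primary. Postn, periostin, a matrix protein of activated fibroblasts, had 1542, 1034, 788, 1761, 1797 and 634 in recurrences and 1129 through 2155 to 3542 in TI-KM primaries, a difference of -0.74 (SE 0.27, adjusted p = 0.241). All recurrences were below the TI-KM median and 3 were below every TI-KM primary. Rgs5 differed by -0.99 (SE 0.37, adjusted p = 0.266), with all recurrences below the TI-KM median. With the array sets as a block the values were -0.88 (adjusted p = 0.0511) for Postn, -1.21 (adjusted p = 0.0752) for Rgs5 and 1.15 (adjusted p = 0.141) for Myh11, and still 0 of 44 were called.

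Recurrences differed widely among themselves. The SD of log2 values had a median over the 6 contractile genes of 1.21 in recurrences, 0.67 in TI-KM primaries and 0.50 in TI-K primaries, where the medians over all genes were 0.51, 0.47 and 0.34. For the 33 matrix genes it was 0.78, 0.53 and 0.60. In recurrences, 5 of 6 contractile genes and 6 of 33 matrix genes exceeded an SD of 1.04, which 1461 of all 14602 genes did. The recurrences are therefore described one by one, by how far each gene lay from the median of the TI-KM primaries and whether it lay outside all 14 of them. These single-array values have no test. The log2 3′/5′ ratio of control transcripts was 1.10, 0.73 and 0.97 on recurrences 1, 2 and 4. On recurrences 3, 5 and 6 it was 1.54, 1.79 and 1.80, and it ran from 1.39 to 4.01 on TI-KM primaries. Recurrences 1, 2 and 4 thus lay below every TI-KM primary in this ratio. With the ratio as a covariate, the median difference of the 44 genes between recurrences and TI-KM primaries was 0.01, against 0.19 without it. Its part in single recurrences was not tested.

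Recurrence 1 was rich in contractile transcripts. Of the 44 genes, 11 were above every TI-KM primary (19.5% of all genes were) and 5 below (13.9%), and the 11 included 4 of the 6 contractile genes. Myh11 at 492, Myl9 at 1338, Actg2 at 485 and Des at 611 lay 3.28, 2.45, 2.12 and 2.08 log2 units above the TI-KM median. The farthest above was Mfap4, a microfibril protein of elastic fibres, at 1517, or 4.12 units. Mfap4 had 43.7, 15.3, 151, 366 and 11.7 in recurrences 2 to 6 and ran from 6.15 through 68.9 to 808 in TI-KM primaries. The farthest below was Col1a1, at 190 (-1.84), followed by the basement membrane chains Col4a2 at 1258 (-1.64) and Col4a1 at 2719 (-1.63), and then Col15a1 and Thbs1. Col3a1, at 10091, and Col1a2, the other collagen I chain listed, at 3378 (0.31), were within the TI-KM range. The collagen chains of this tumour thus did not lie on one side.

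Col4a1 and Col4a2, which form the main basement membrane collagen, had 7732 to 8936 and 3547 to 4798 in the other 5 recurrences, so recurrence 1 stood alone for both. The genes lie head to head on chromosome 8 (Col4a1 at 11198423 to 11312889, minus strand, and Col4a2 at 11312805 to 11449287, plus strand, GRCm38.p6), and their RefSeq promoter windows overlap by 78 bases. In the same array the epithelial junction markers summed to 21631, against 53956 to 74563 in TI-KM primaries, and the alveolar type II markers to 71182, against 98342 to 153199. Mesothelial markers summed to 4014 there, against at most 1768 in TI-KM primaries, and endothelial markers to 10433.5, against at most 10170. The part of these in its matrix and contractile values was not tested.

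Recurrence 2 was high in most elastic fibre genes, of which 5 of 7 lay above every TI-KM primary. The remaining ones, Fbln5 (-0.53) and Mfap4 (-0.48), lay below the TI-KM median and within the range. In recurrence 2, 12 of 44 genes lay above every TI-KM primary (11.5% of all genes) and 1 below (9.67%). Eln, elastin, was the farthest above at 4264 (1.92), against 643 through 1110 to 2407 in TI-KM primaries and 1196, 871, 2152, 714 and 1145 in recurrences 1 and 3 to 6. The others included Col18a1 at 3900, Fn1 at 12390, Mmp2 at 1959, Loxl1 at 1076, Lox at 612 and Mfap5 at 461. Actg2, at 293, was the single contractile gene above the TI-KM range. Postn at 1034 was the single gene below (-1.04). The epithelial junction markers summed to 80756 in this array, against 53956 to 74563 in TI-KM primaries, and their part in the values was not tested.

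In recurrence 3, Tagln, Col5a2 and Col1a2 were below every TI-KM primary, while Col5a1 and Col1a1 were within their range. In it 3 of 44 genes were above every TI-KM primary (11.1%) and 7 below (12.7%). The lowest relative to TI-KM primaries was Tagln at 70.5 (-2.14), followed by Col5a2 at 363 (-2.01), Col1a2, a chain of collagen I, at 783 (-1.77), and Postn, Fbln5, Col6a3 and Acta2. Thbs1, the matricellular protein thrombospondin 1, was the farthest above at 1282 (2.14). Thbs1 had 145, 193, 174, 113 and 95.3 in the other recurrences and ran from 176 through 275 to 542 in TI-KM primaries. By this probe set, Thbs1 was thus above all TI-KM primaries in recurrence 3 and below all of them in recurrences 1, 4, 5 and 6. Its mean log2 value was 7.83 in recurrences and 8.18 in TI-KM primaries. A second Thbs1 probe set went the other way, with recurrences higher by 0.26 on average. Tnc, at 329, and Mmp14 also lay above. The macrophage markers summed to 6913 in this array, against 10644 to 45725 in TI-KM primaries, and the epithelial junction markers to 88616, the highest of all tumours, against 53956 to 74563. Their part in the values was not tested.

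Recurrence 4 was rich in decorin. In it 7 of 44 genes lay above (7.12%) and 1 below (6.14%), which was Thbs1 at 174 (-0.60). Dcn had 5715, 3158, 1195, 8796, 1703 and 1356 in recurrences 1 to 6, against 703 through 1227 to 2705 in TI-KM primaries. Recurrences 1, 2 and 4 exceeded every TI-KM primary, and recurrence 4 lay 2.83 units above their median. Fbln1, an elastic fibre and basement membrane protein, at 533, Loxl1 at 1110, Mfap5 at 483 and Col13a1 at 305 were above as well, and Myh11 at 202 was the contractile gene above. Mesothelial markers summed to 5995 in recurrence 4 and 2016 in recurrence 2, both above the TI-KM primaries, and the endothelial markers to 14059 in recurrence 4, against 3932 to 10170. The part of these in the values was not tested.

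Recurrence 5 lay near the TI-KM primaries, with 2 of 44 genes above (6.4%) and 2 below (6.03%). Col18a1, whose protein is the source of endostatin, was 7609 (2.54), against 377 through 1290 to 2614 in TI-KM primaries and 465, 3900, 1001, 905 and 1907 in recurrences 1 to 4 and 6. Col18a1 was thus outside the TI-KM range in recurrences 2 and 5. Myh11, at 115, was the other gene above. Col15a1, the closely related basement membrane collagen, was 321 (-1.36), against 453 through 860 to 1278 in TI-KM primaries, and 270, 949, 1033, 647 and 419 in recurrences 1 to 4 and 6. Thbs1 was the other gene below. Endothelial markers summed to 12901 in this array, against 3932 to 10170 in TI-KM primaries, and the epithelial junction markers to 50293, below every TI-KM primary, and their part in the values was not tested.

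Recurrence 6 read low in both classes. This array had the lowest 18S control signal (5939) and the lowest median signal (69.7) of the 29 arrays. The part of these readings in its values was not tested. None of the 44 genes lay above every TI-KM primary (4.75% of all genes did) and 15 lay below (9.41%), namely 10 of 33 matrix genes and 5 of 6 contractile genes. Postn was the lowest relative to TI-KM primaries, at 634 (-1.73). Acta2 at 1322, Tagln at 134, Myl9 at 79.9, Actg2 at 28.9 and Des at 48.7 were each below every TI-KM primary, and Myh11 at 43.9 was within their range. The matrix genes below were Col5a1, Col5a2, Col6a3, Col15a1, Loxl1, Fn1, Postn, Thbs1, Lum and Mmp14. Median distances were -0.64 for matrix and -1.28 for contractile genes, against -0.08 over all genes. Alveolar type II markers summed to 142978 and macrophage markers to 40169 in this array, inside the TI-KM ranges, and mesothelial markers to 1826, against at most 1768.

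**Figure D5:**
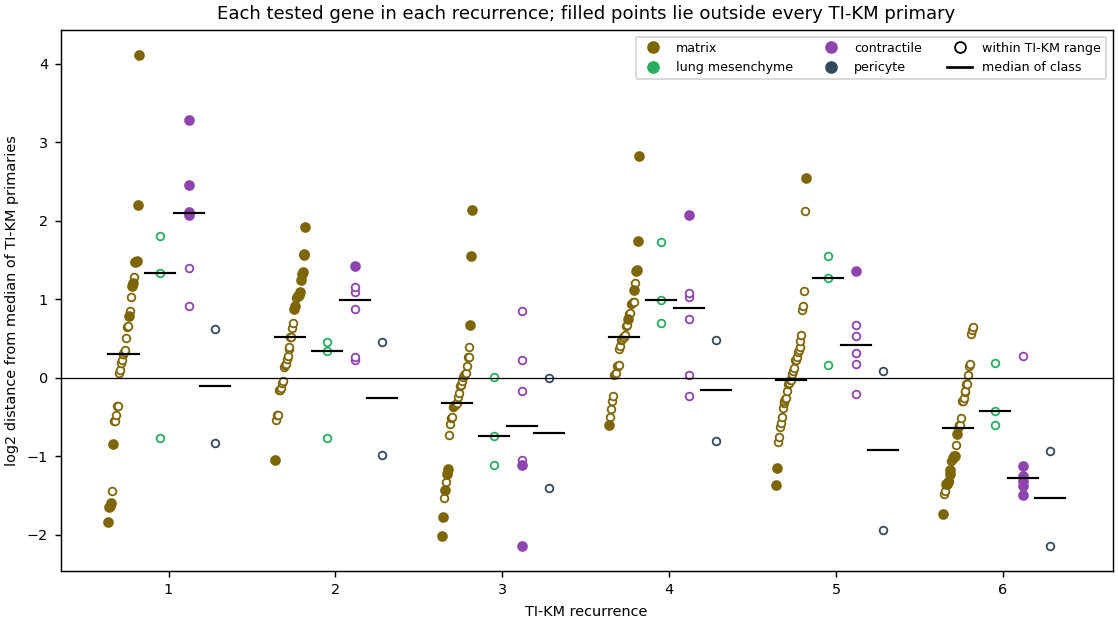
Log2 distance of each tested gene from the median of the TI-KM primaries in each recurrence, by class, with a bar at the class median. Filled points lie outside all 14 TI-KM primaries. Contractile genes centre at 2.10 in recurrence 1 and at -1.28 in recurrence 6, and recurrence 6 has no filled point above 0.

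The array sets ran through the recurrences too. Recurrences 1 to 4, which were high-18S arrays, had 7 of 44 genes called higher than recurrences 5 and 6 and 0 lower. Among the 7 were Actg2 (1.60, SE 0.38, adjusted p = 0.00549) and Des (1.58, SE 0.55, adjusted p = 0.046). Over all 14602 genes, 2001 were called higher in that comparison and 740 lower (18.8% in all). Recurrence 3 was a high-18S array with low Tagln and Acta2, and within high-18S arrays alone recurrences and TI-KM primaries had 0 of 44 genes called (5 at an unadjusted p below 0.05).

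A wider list of 110 matrix-processing, smooth muscle, pericyte and lung mesenchyme genes gave 95 tested. Against the normal lung, 1 was higher and 10 lower in recurrences, 6 higher and 16 lower in TI-KM primaries, and 6 higher and 9 lower in TI-K primaries, where 12.6%, 14.9% and 13.5% of all genes were called in either direction. Aoc3, an amine oxidase of smooth muscle and fat cells, was lower by log2 differences of -7.17 (SE 0.75), -6.83 (SE 0.72) and -6.06 (SE 0.74) in that order. Cd44, the hyaluronan receptor, was higher by 2.75 (SE 0.30), 2.52 (SE 0.28) and 2.83 (SE 0.29). The lower genes in TI-KM primaries included Wnt2 (-3.50), a growth factor of lung mesenchyme, and Prelp (-3.59), a matrix proteoglycan, and those in recurrences included Meox2 (-2.59), a transcription factor, and the laminin chain Lama4 (-2.54). In TI-K primaries, Bmp1 (2.45), the protease that trims procollagens, and Tpm1 (1.84), a tropomyosin, were higher. The highest adjusted p among these was that of Lama4, 0.0159.

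Between the primaries, 3 of the 95 were called higher in TI-KM and 4 lower, where 7.99% of all genes were called. Bmp1 differed by -0.79 (SE 0.19, adjusted p = 0.0127), Serpinh1, the collagen chaperone, by 0.92 (SE 0.24, adjusted p = 0.0197), Pdgfra, a growth factor receptor of fibroblasts, by -1.10 (SE 0.30, adjusted p = 0.0242) and Emilin1, an elastic fibre protein, by -0.77 (SE 0.22, adjusted p = 0.0332). All of these calls were lost with the array sets as a block and within the remaining arrays, where 0 of 14602 genes were called. Between recurrences and TI-KM primaries 0 of the 95 were called.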

How the data were processed

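The 46 genes, their classes and the lists of other genes were chosen with earlier results of these data known. The deposited values were array intensity signals made with MAS5, per the submitters' processing notes, whose version and settings are not given in the sources used here; they had no log or further scaling. All 29 arrays had a trimmed mean of 500.003 (2% trimmed at each end). The design text names MOE430A 2.0, while the table held 45101 probe sets. Gene names came from the platform annotation.

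From the deposited intensity values, log2(signal + 20) was computed. Probe sets above the 40th percentile of their array on at least 6 arrays were kept, and limma 3.58.1 (R 4.3.3) fitted the 4 groups in 1 model with a variance trend, with Benjamini-Hochberg adjustment over 14602 genes and a threshold of 0.05. The code was tested on simulated data. Values are spelled out for up to 6 called genes of smallest p per comparison (3 where fewer than 3 were called), the farthest gene on each side in each recurrence, and Col1a1, Col3a1, Acta2, Tagln and Myh11; of the wider list, up to 4. Des, Actg2, Cnn1, Col4a1, Col4a2 and other genes named beyond these were picked after their values were seen. Alternatives covered scaling, offset, filter, probe set choice, variance model, the 3′/5′ ratio as a covariate, array sets and leaving out each array. Precision is limited by the number of arrays.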

Additional observations from a re-analysis of the deposited data

Results flagged for a closer look

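Within groups of 6 or 8 arrays, 7 of 88 gene and group combinations (7.95%) had 1 array far from the others by Dixon's criterion, where chance flags about 1 in 20. In recurrence 1 Col4a1 was the lowest at 2719 (next 7732) and Col4a2 the lowest at 1258 (next 3547). In recurrence 3 Thbs1 was the highest at 1282 (next 193). Among TI-K primaries, Mmp2 was the highest in replicate 3 at 5163 (next 1073), Thbs1 the highest in replicate 1 at 674 (next 303), Sparc the lowest in replicate 6 at 4312 (next 7645) and Col1a1 the lowest in replicate 7 at 424 (next 654).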

How the results depend on the processing

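No called gene changed direction: of 1366 gene and setting combinations, 1256 kept their side of the threshold, 101 lost and 9 gained a call. Uncalled differences of Col1a1, Col3a1 and Tagln did cross 0, such as Col1a1 in TI-KM minus TI-K primaries (-1.24 to 0.21). Brackets after the counts below give the share of all genes called under the same setting. Between TI-KM and TI-K primaries, 4 genes were called (7.99%), and 0 with array sets as a block (0%) or in remaining arrays only (0%). There were 2 with the pair of number 76 averaged (5.24%) and 7 with the probe set of largest variance (14.6%). Leaving out 1 array gave 2 to 6. The matrix median there was -0.21, and turned to 0.0441 with the block and 0.0702 in remaining arrays. Against the normal lung, TI-K primaries had 5 calls (13.5%), and 8 with the 3′/5′ ratio as a covariate (13.8%). They had 3 with the mean of probe sets (12.6%), 9 with an offset of 100 (13.7%) and 10 with only the groups compared (21.3%). The probe set of largest variance gave 3 (8.72%) and quantile normalization 8 (14.5%). In remaining arrays only there were 14 (23.9%), and the contractile median was -2.92. Recurrences had 8 calls (12.6%), and 5 with an offset of 1 (12.8%) and 2 with only the groups compared (2.67%). They had 5 with the probe set of largest variance (8.34%) and 16 in remaining arrays (20.1%), and leaving out 1 array gave 5 to 8. TI-KM primaries had 10 (14.9%), and 9 to 11 with 1 array left out. Their matrix median of -0.58 became -0.13 in high-18S arrays and -0.30 with the mean of probe sets. Recurrences against TI-KM primaries had 0 calls under every alternative tried. The causes were not tested, beyond the smaller samples that array subsets use. Scaling to a common median put the median of all genes minus the normal lung at 0.17 in recurrences, 0.18 in TI-KM primaries and 0.13 in TI-K primaries. No paired analysis was possible because the replicate numbers only name arrays within a group. Signals near the offset of 20, as for Cnn1, Mfap4 and Myh11, limit what can be resolved.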
